A study of Caenorhabditis elegans with 11 samples.

Results

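The replication licensing genes of Caenorhabditis elegans were followed here in a worm model of a germline tumor treated with betaxanthins, plant pigments made from betalamic acid and an amino acid or amine. The set holds 10 genes, of 26128 genes with a probe set of their own on the array: mcm-2, mcm-3, mcm-4, mcm-5, mcm-6 and mcm-7, cdc-6, cdt-1, orc-2 and pcn-1. They were chosen by name, as subunits of the MCM helicase, its loading factors, a subunit of the origin recognition complex and the sliding clamp. No cutoff on their values was used, but earlier results of these data were known when they were chosen. Each of the 10 had exactly 1 probe set in the probe-to-gene table, none of them shared with another gene. All 10 had a mean signal above 2.28, the median of the 26761 probe sets tested, so that none of them was left out by a filter on low values.

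A chromosome is copied from many origins, and each of them may start only once in a cell cycle. In G1 the origin recognition complex, CDC-6 and CDT-1 load the ring of MCM subunits around DNA, which licenses the origin. In S phase the ring is activated as the helicase of the replication fork, PCN-1 (the PCNA clamp) holds the polymerases on DNA, and CDT-1 is removed or inhibited so that no origin is licensed again. In the worm the germ line is the tissue that keeps dividing in the adult, where these genes are used in each division. GLD-1, an RNA-binding protein that represses translation, keeps germ cells in meiosis, and germ cells without it return to mitosis and form a tumor.

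All animals were of the strain JK1466, labelled gld-1(-) and given in the methods as gld-1(q485) over dpy-5(e61) unc-13(e51), a heterozygous genotype. Every group, the water control too, ate E. coli HT115 that express gld-1 RNAi. They received 25 µM of tryptophan methyl ester-betaxanthin, tryptophan benzyl ester-betaxanthin or tryptophan-betaxanthin, or water as the control, for 48 h at 20 °C in S medium, starting 16 to 18 h after hatching, and were collected whole as L4 larvae and young adults. The esters differ from tryptophan-betaxanthin by a methyl or a benzyl ester on the tryptophan part. Each compound had 3 arrays, 1 from each of trials 1, 2 and 3, which the labels call independent. The 2 control arrays came from trials 1 and 2, and a third-trial control was not analysed here. Dose and time did not differ between the 3 compounds.

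The values are the log2 RMA signals that the authors deposited, where a difference of 1 is a 2-fold change. A signal of 1 probe set is never compared with that of another. Markers of the germ line and of the body were both present in these whole animals, with 8 of 9 measured markers of proliferating germ cells, 10 of 10 oocyte markers, 7 of 9 sperm markers and 6 of 6 body wall muscle markers above the median signal. gld-1 itself had 6.74, 7.33 and 5.91 in methyl ester arrays, 6.44, 5.50 and 6.27 in benzyl ester arrays, 7.12, 7.45 and 7.14 with tryptophan-betaxanthin and 7.32 and 7.43 in the controls, and since every group had the knock-down it is no check of the labels. The median signal of an array lay between 2.23 and 2.32, and no 2 arrays were identical. The third trial stood apart from the others, with 6.79% of all probe sets lower and 5.01% higher than in the first and second trials (limma, adjusted p under 0.05), and results that rest on it are given without it too.

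The 10 genes had lower mean signals with the esters than with tryptophan-betaxanthin or water, and the MCM subunits most clearly so. Ester and tryptophan-betaxanthin arrays overlapped for cdc-6 and orc-2 with both esters and for cdt-1 with the benzyl ester. orc-2 differed from the controls by only -0.09 with the methyl and -0.08 with the benzyl ester. With the benzyl ester, mcm-7, mcm-2 and mcm-4 fell against tryptophan-betaxanthin, mcm-7 to 4.53 ± 0.14 against 5.56 ± 0.14 (SD, n = 3 each). No gene of the set passed the test against the water control with any compound, or between the esters. Tryptophan-betaxanthin left all 10 within 0.25 log2 units of the controls. In whole animals, fewer cells that use a gene and less RNA per cell cannot be told apart.

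**Figure D1:**
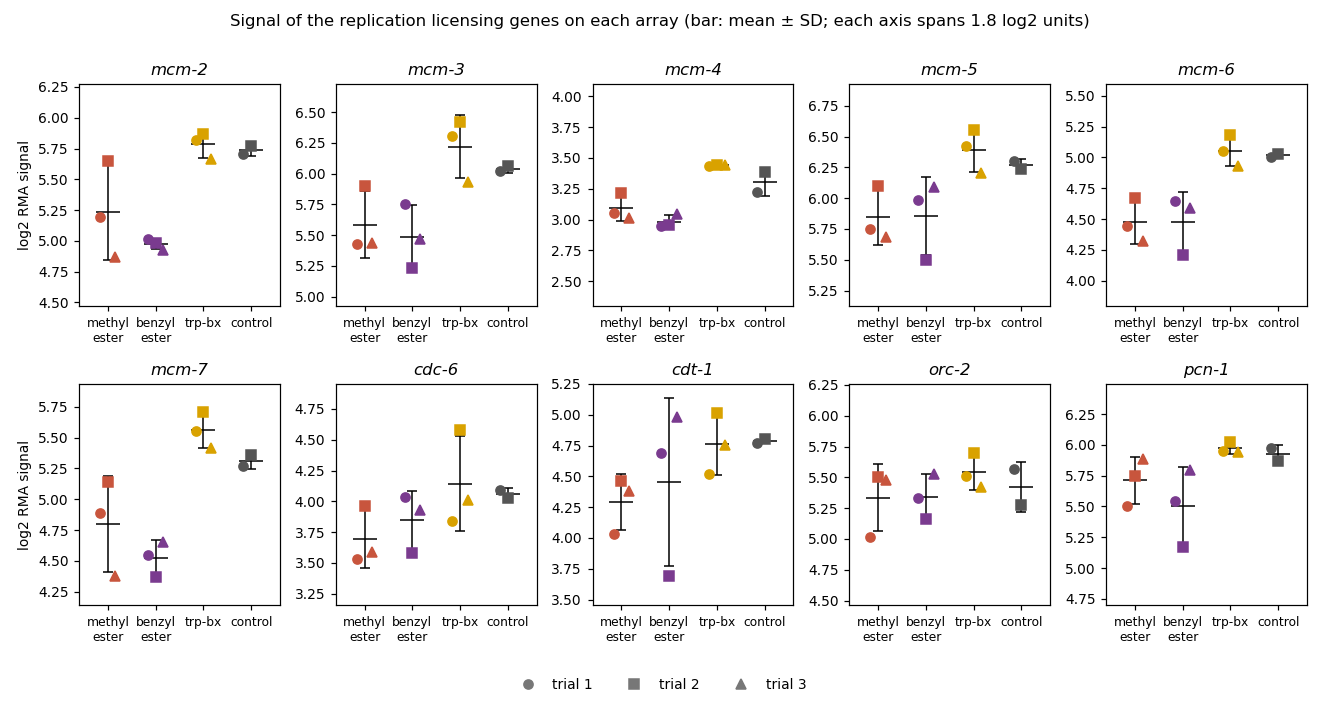
Each panel shows 1 gene, with the log2 RMA signal of every array on the vertical axis and the treatments on the horizontal axis (trp-bx is tryptophan-betaxanthin). Points are arrays, shaped by trial, and bars give the mean and SD of 3 arrays for each compound and 2 for the control. For mcm-4, the 3 benzyl ester arrays lie between 2.95 and 3.04, and the 3 tryptophan-betaxanthin arrays at 3.44.

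mcm-7, mcm-2 and mcm-4 encode subunits of the helicase ring, with MCM-4 and MCM-7 part of its core motor. The signal of mcm-7 was 4.89, 5.14 and 4.37 in methyl ester arrays, 4.55, 4.37 and 4.66 in benzyl ester arrays, 5.55, 5.71 and 5.42 with tryptophan-betaxanthin, and 5.27 and 5.36 in the controls. Every ester array lay below every tryptophan-betaxanthin and control array. The log2 fold change against tryptophan-betaxanthin was -1.03 (SE 0.18, adjusted p = 0.0264 by limma) with the benzyl ester, which is 2.05-fold lower, and -0.76 (SE 0.18, adjusted p = 0.0665, 0.0257 with the trial number as a block) with the methyl ester.

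mcm-2 had 5.19, 5.65 and 4.87 in methyl ester arrays, 5.02, 4.98 and 4.93 in benzyl ester arrays, 5.82, 5.87 and 5.66 with tryptophan-betaxanthin, and 5.70 and 5.77 in the controls. The 3 benzyl ester arrays agreed within 0.09 of each other, whereas the methyl ester arrays spread over 0.78 log2 units, with trial 2 almost at the level of the lowest tryptophan-betaxanthin array. Against tryptophan-betaxanthin the log2 fold change was -0.81 (SE 0.17, adjusted p = 0.0361 by limma) with the benzyl ester and -0.55 (SE 0.17, adjusted p = 0.112, 0.0355 with the block) with the methyl ester.

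The signal of mcm-4 was 3.05, 3.22 and 3.01 in methyl ester arrays, 2.95, 2.95 and 3.04 in benzyl ester arrays, 3.44, 3.44 and 3.44 with tryptophan-betaxanthin, and 3.22 and 3.39 in the controls. It had the smallest difference of the 6 MCM genes and also the smallest spread. It fell by 0.46 on the log2 scale with the benzyl ester against tryptophan-betaxanthin (SE 0.09, adjusted p = 0.0305 by limma), and its difference with the methyl ester was -0.35 (SE 0.09, adjusted p = 0.0727, 0.0448 with the block).

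The other ring subunits also had lower means with both esters, and none of them passed in the model without the trial number. mcm-6 had 4.44, 4.67 and 4.32 in methyl ester arrays, 4.65, 4.20 and 4.59 in benzyl ester arrays, 5.05, 5.18 and 4.93 with tryptophan-betaxanthin, and 5.01 and 5.03 in the controls, with no overlap between the esters and the other groups. Against tryptophan-betaxanthin its log2 fold change was -0.58 with the methyl ester (adjusted p = 0.0685 by limma, 0.0373 with the trial number as a block). With the benzyl ester it was -0.58 too (adjusted p = 0.0564, 0.0367 with the block). For mcm-3 the arrays gave 5.43, 5.90 and 5.43 in methyl ester arrays, 5.76, 5.23 and 5.47 in benzyl ester arrays, 6.31, 6.42 and 5.93 with tryptophan-betaxanthin, and 6.02 and 6.06 in the controls. The highest methyl ester array and the lowest tryptophan-betaxanthin array of mcm-3 were only 0.04 apart. Its log2 fold changes against tryptophan-betaxanthin were -0.63 for the methyl ester (adjusted p = 0.0973 by limma, 0.0466 with the trial as a block) and -0.73 for the benzyl ester (adjusted p = 0.062, 0.0289 with the block). mcm-5 had 5.75, 6.10 and 5.69 in methyl ester arrays, 5.98, 5.50 and 6.09 in benzyl ester arrays, 6.42, 6.55 and 6.20 with tryptophan-betaxanthin, and 6.30 and 6.24 in the controls. Its differences from tryptophan-betaxanthin were -0.55 (adjusted p = 0.119) with the methyl ester and -0.53 (adjusted p = 0.117) with the benzyl ester.

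The genes of the loading factors, cdt-1 and cdc-6, had the widest intervals of the set between the treatments. CDT-1 is the licensing factor whose removal in S phase prevents a second round of licensing. cdt-1 had 4.03, 4.46 and 4.38 in methyl ester arrays, 4.69, 3.69 and 4.98 in benzyl ester arrays, 4.52, 5.02 and 4.76 with tryptophan-betaxanthin, and 4.77 and 4.80 in the controls. The benzyl ester array of trial 2 was 1.00 log2 units below the next one, and the array of trial 3 was above both controls, so that the SD of the benzyl ester arrays was 0.68 and the groups overlapped. The adjusted p-values of cdt-1 against tryptophan-betaxanthin were 0.409 for the methyl and 0.618 for the benzyl ester (limma).

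CDC-6 is the ATPase that joins the origin recognition complex to recruit the ring. cdc-6 had 3.53, 3.96 and 3.59 in methyl ester arrays, 4.03, 3.58 and 3.93 in benzyl ester arrays, 3.84, 4.58 and 4.01 with tryptophan-betaxanthin, and 4.09 and 4.03 in the controls. The tryptophan-betaxanthin array of trial 2 was the highest and the other arrays of the treatments overlapped, and the adjusted p-values were 0.25 for the methyl and 0.469 for the benzyl ester against tryptophan-betaxanthin (limma). orc-2, the subunit of the origin recognition complex in the set, had the smallest differences. Its signals were 5.02, 5.50 and 5.48 in methyl ester arrays, 5.34, 5.16 and 5.53 in benzyl ester arrays, 5.51, 5.70 and 5.42 with tryptophan-betaxanthin, and 5.56 and 5.28 in the controls. The 2 controls of orc-2 alone were 0.29 apart, more than its difference of -0.21 with the methyl and -0.20 with the benzyl ester from tryptophan-betaxanthin (adjusted p of 0.512 and 0.537 by limma).

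pcn-1, the gene of the clamp that follows licensing, had 5.51, 5.75 and 5.88 in methyl ester arrays, 5.54, 5.17 and 5.80 in benzyl ester arrays, 5.95, 6.02 and 5.95 with tryptophan-betaxanthin, and 5.98 and 5.87 in the controls. The tryptophan-betaxanthin arrays agreed within 0.08, and all ester arrays lay below them. The log2 fold changes against tryptophan-betaxanthin were -0.26 (SE 0.15, adjusted p = 0.394 by limma) with the methyl ester and -0.47 (SE 0.15, adjusted p = 0.125) with the benzyl ester.

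Against tryptophan-betaxanthin, 3 of the 10 genes fell with the benzyl ester (limma, adjusted p under 0.05), where 0.998% of all probe sets were called lower. At an unadjusted p under 0.05 it was 7 of 10, the 6 MCM genes and pcn-1, beside 8.92% of all probe sets. The groups did not overlap for 7 of 10, beside 11.1% of all probe sets. The median log2 fold change was -0.66 over the 6 MCM genes and -0.30 over cdc-6, cdt-1, orc-2 and pcn-1, with -0.01 over all probe sets. The 3 calls were close to the threshold. None of the 3 passed when any tryptophan-betaxanthin array or the benzyl ester array of trial 2 was left out (limma, adjusted p of 0.0613 to 0.145). The lower calls over all 26761 probe sets fell too, from 267 to between 4 and 12 in these fits. The loss of the calls is thus not particular to these genes. Over all 11 arrays left out in turn, the log2 fold change of mcm-7 lay between -1.10 and -0.96, that of mcm-2 between -0.87 and -0.77 and that of mcm-4 between -0.49 and -0.44. Without the third trial, 7 of 10 passed, the 6 MCM genes and pcn-1, beside 4.82% of all probe sets. With the trial number as a block, mcm-2, mcm-3, mcm-4, mcm-6 and mcm-7 passed, beside 1240 of 26761 probe sets called lower.

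With the methyl ester, 0 of 10 passed against tryptophan-betaxanthin (limma), with 0.437% of all probe sets called lower. At an unadjusted p under 0.05 all 6 MCM genes and none of the other 4 were lower, beside 9.91% of all probe sets. The groups did not overlap for 8 of 10, beside 12.9% of all probe sets, and the median was -0.56 over the MCM genes and -0.35 over the other 4. With the trial number as a block, mcm-2, mcm-3, mcm-4, mcm-6 and mcm-7 passed (adjusted p of 0.0257 to 0.0466), where 5.05% of all probe sets were called lower. Without the third trial mcm-7 alone passed (log2 fold change -0.61, adjusted p = 0.0431), beside 1.36% of all probe sets. Without the methyl ester array of trial 2, which had the highest signals of that group for the 6 MCM genes, 5 of 10 passed, beside 2.43% of all probe sets called lower.

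**Figure D2:**
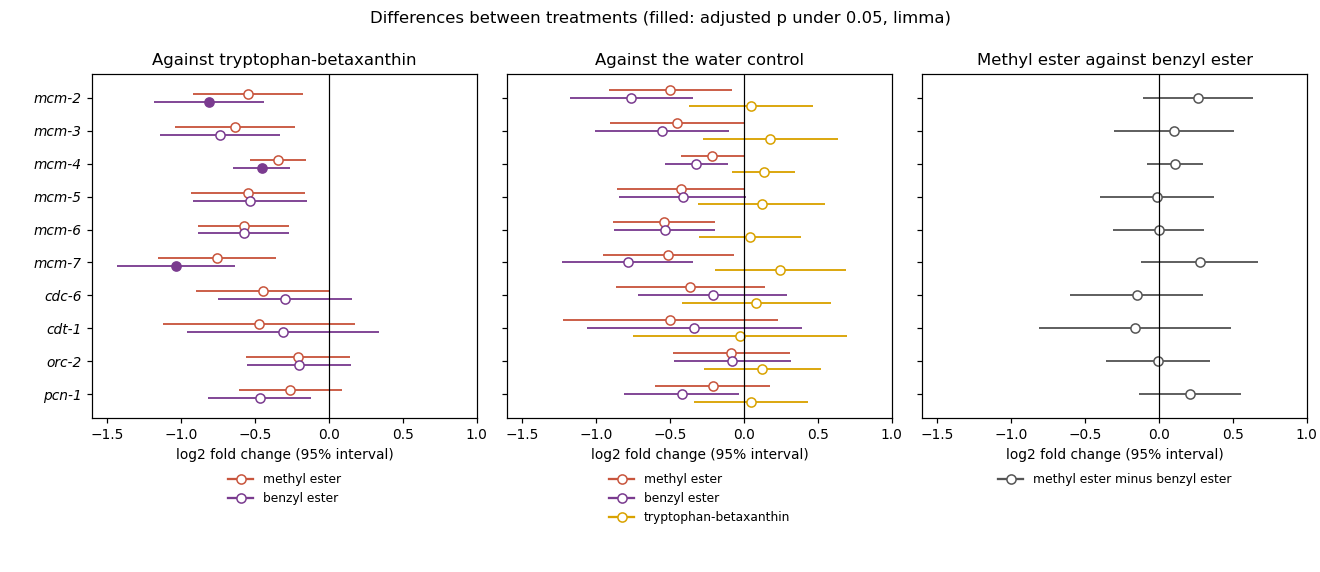
The horizontal axes give the log2 fold change of each gene with its 95% interval (limma), against tryptophan-betaxanthin on the left, against the water control in the middle and between the esters on the right. Filled points have an adjusted p under 0.05, which are mcm-2, mcm-4 and mcm-7 with the benzyl ester on the left.

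Against water, the question was whether worms given a compound differed from those given water. All 10 genes had lower means with either ester, with a median of -0.44 for the methyl and -0.42 for the benzyl ester, and the median over all probe sets was 0.01 in both cases. None passed the test. With the methyl ester 4 of 10 were lower at an unadjusted p under 0.05 (8.13% of all probe sets; 0.0336% at an adjusted p), with mcm-6 first at -0.54 (SE 0.15, adjusted p = 0.185 by limma). With the benzyl ester 6 of 10 were lower at an unadjusted p (7.07% of all probe sets; 0.112% at an adjusted p), led by mcm-2 at -0.76 (SE 0.19, adjusted p = 0.119 by limma) and mcm-7 at -0.79 (SE 0.20, adjusted p = 0.129). Ester and control arrays did not overlap for 8 of 10 genes with the methyl ester and 7 of 10 with the benzyl ester, beside 20.8% and 17.4% of all probe sets. The third-trial arrays of the esters have no control of their own here. Without them mcm-2 fell by 0.74 and mcm-7 by 0.85 on the log2 scale with the benzyl ester (adjusted p of 0.0264 and 0.00993, limma), beside 2.13% of all probe sets, and the methyl ester still gave no call (lowest adjusted p 0.182).

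Tryptophan-betaxanthin and the control had close levels. The log2 fold changes of the 10 genes lay between -0.03 for cdt-1 and 0.25 for mcm-7, with a median of 0.10, and 0 of 10 passed at an adjusted or an unadjusted p under 0.05 (limma; 0% of all probe sets were called lower). The mean was highest with tryptophan-betaxanthin and second highest in the controls for 9 of 10 genes, and for cdt-1 the controls were first. The lowest mean belonged to the methyl ester for 5 genes and to the benzyl ester for the other 5. In this order, the step between tryptophan-betaxanthin and the control and that between the methyl and the benzyl ester passed the test for no gene. The tryptophan-betaxanthin arrays all lay above both controls for mcm-4 and mcm-7, 2 of 10 genes, beside 16.2% of all probe sets. Within trial 1, 4 of 10 genes were lower than in the control (median 0.08), and within trial 2, 0 of 10 (median 0.26). The array of tryptophan-betaxanthin in trial 2 was the highest of all 11 for each of the 10 genes, and the benzyl ester array of the same trial the lowest for 6 of them.

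The esters did not differ from each other past the threshold for any of the 10 genes, at an adjusted or an unadjusted p (limma; 0.112% of all probe sets were called lower with the methyl ester). The methyl ester minus the benzyl ester was 0.28 for mcm-7 (95% interval -0.12 to 0.67) and 0.26 for mcm-2 (-0.11 to 0.64), so that a difference of more than 1.5-fold is not excluded there. The intervals were narrower for mcm-4 (-0.08 to 0.30) and widest for cdt-1 (-0.81 to 0.49). Across trials the sign turned. In trial 2 all 10 genes were higher with the methyl ester, with a median of 0.59, while 7 of 10 were lower in trial 1 and 9 of 10 in trial 3, with medians of -0.22 and -0.16.

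In the mean of both esters, a contrast chosen after the values were seen, 5 of 10 genes were lower than with tryptophan-betaxanthin (limma, adjusted p under 0.05), beside 2.64% of all probe sets. They were mcm-7 at -0.90 (SE 0.15, adjusted p = 0.0177), mcm-4 at -0.40 (adjusted p = 0.021), mcm-6 at -0.58 (adjusted p = 0.0277), mcm-2 at -0.68 (adjusted p = 0.0294) and mcm-3 at -0.68 (adjusted p = 0.0359). mcm-5 had an adjusted p of 0.0606. Against the control none passed for the mean of both esters, beside 0.116% of all probe sets, with mcm-6 first (-0.54, adjusted p = 0.109), and 6 of 10 were lower at an unadjusted p under 0.05, beside 9.42% of all probe sets. Without the third trial, 7 of 10 were lower for the mean of both esters than with tryptophan-betaxanthin, the 6 MCM genes and pcn-1 (adjusted p of 0.00542 to 0.04 by limma), beside 5.14% of all probe sets. Against the control it was then 2 of 10, mcm-7 at -0.58 (adjusted p = 0.0234) and mcm-2 at -0.53 (adjusted p = 0.0495), beside 2.1%. All these comparisons share arrays, those against tryptophan-betaxanthin its 3 arrays and those against water the 2 controls. In the F test over the 4 groups none passed (1.34% of all probe sets did, limma), with mcm-7 at an adjusted p of 0.0541 and 6 of 10 genes at an unadjusted p under 0.05, beside 19.1% of all probe sets.

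**Figure D3:**
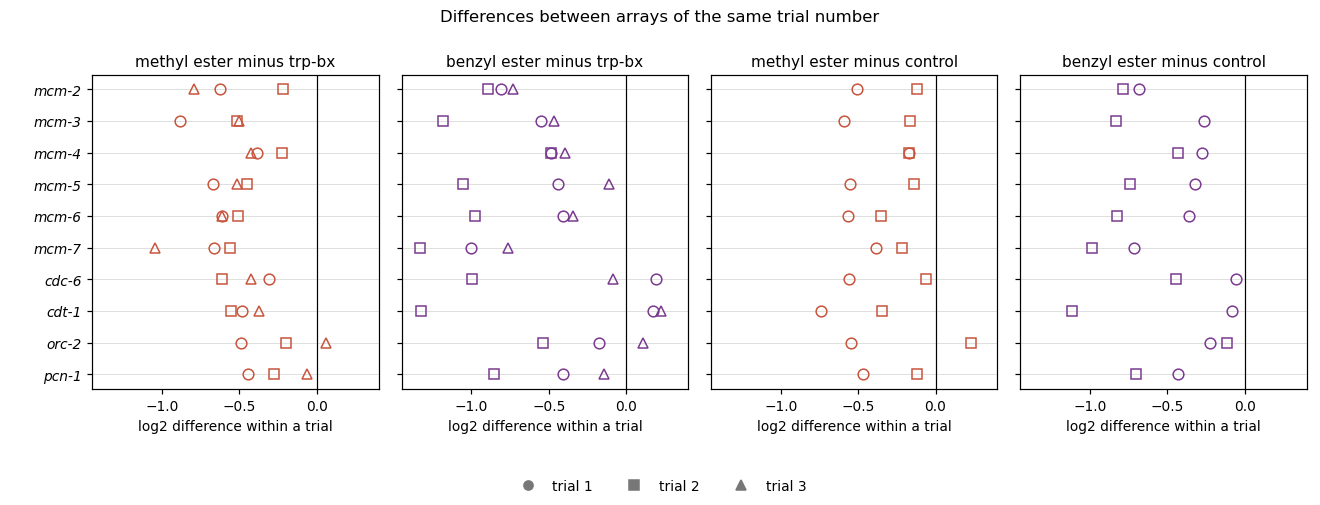
The horizontal axes give the log2 difference between 2 arrays of the same trial for each gene, methyl ester or benzyl ester minus tryptophan-betaxanthin (trp-bx) in the 2 left panels and minus the control in the 2 right panels. Marker shapes are the trials, and the third trial has no control array here. The MCM genes lie below 0 in every panel and trial, and mcm-7 reaches -1.34 with the benzyl ester in trial 2.

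Within trials, the MCM genes were lower with the esters in each pair of arrays. For mcm-7 the benzyl ester minus tryptophan-betaxanthin was -1.0, -1.34 and -0.76 in trials 1, 2 and 3, and the methyl ester minus tryptophan-betaxanthin was -0.67, -0.56 and -1.04. The exceptions to the lower signal came from the other genes. Against tryptophan-betaxanthin cdc-6 was 0.20 higher with the benzyl ester in trial 1, cdt-1 was 0.18 and 0.22 higher with the benzyl ester in trials 1 and 3, and orc-2 was 0.11 higher with the benzyl and 0.06 higher with the methyl ester in trial 3. Against water, only orc-2 with the methyl ester in trial 2 was higher. The median over the 10 genes for the benzyl ester minus tryptophan-betaxanthin was -0.42, -0.99 and -0.25 in the 3 trials, and the share of all probe sets below 0 was 50.7%, 49.6% and 50.6%.

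The licensing genes differed little between the third and the earlier trials, beside the shifts of other genes. None of the 10 passed between these trials at an adjusted or an unadjusted p (limma, treatment in the model), and the differences lay between -0.27 for mcm-2 and 0.31 for cdt-1. In this average all 6 MCM genes were slightly lower in the third trial, and cdt-1, orc-2 and pcn-1 were higher. Within a compound the differences were larger, from -0.64 (mcm-7) to 0.26 (pcn-1) with the methyl ester. They ran from -0.07 (mcm-2) to 0.79 (cdt-1) with the benzyl ester and from -0.43 (mcm-3) to 0.001 (mcm-4) with tryptophan-betaxanthin. With the benzyl ester mcm-4, mcm-5, mcm-6 and mcm-7 were higher in the third trial, and mcm-2 and mcm-3 lower. By treatment, the median of the 10 genes in the third trial against the mean of the earlier ones was -0.19 with the methyl ester, 0.18 with the benzyl ester and -0.18 with tryptophan-betaxanthin. The corresponding medians of the oocyte markers were -1.36, -0.92 and -0.21, and those of the hypodermis and moult markers 1.21, 1.23 and 0.16. For mcm-7 the third trial was 0.64 lower than the earlier ones with the methyl ester and 0.20 higher with the benzyl ester, a difference of -0.84 (SE 0.25) that did not pass over all probe sets (adjusted p = 0.699, unadjusted p = 0.0102, interaction term in limma).

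The other genes of DNA replication were taken from 6 lists with 85 genes, of which 75 were measured. Against tryptophan-betaxanthin, 69 of 75 had lower means for the methyl ester and 68 of 75 for the benzyl ester, with medians of -0.41 and -0.39. Of all 26761 probe sets, 13351 had lower means with the methyl ester, and the medians over all of them were 0.0007 and -0.0061. The methyl ester gave 3 calls and the benzyl ester 3, all of them lower (limma), beside 0.437% and 0.998% of all probe sets called lower. Among the genes of helicase activation, ctf-4, which couples the helicase to the polymerases, fell by 0.85 on the log2 scale with the methyl ester and by 0.92 with the benzyl ester (adjusted p of 0.0458 and 0.0293), 1 of 13 measured in each case, with list medians of -0.51 and -0.63. Of 17 genes of the clamp loader and fork processing, 1 passed with the methyl and 2 with the benzyl ester, with medians of -0.39 and -0.43. They were crn-1, the flap nuclease that trims Okazaki fragments, at -0.62 with the methyl ester (adjusted p = 0.0361) and -0.52 with the benzyl ester (adjusted p = 0.041), and top-2, topoisomerase II, at -0.67 with the benzyl ester (adjusted p = 0.0361).

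The DNA polymerases and primase had medians of -0.49 and -0.33 with the methyl and the benzyl ester against tryptophan-betaxanthin. Of its 13 genes pri-1, the catalytic primase subunit, was called with the methyl ester (-0.53, SE 0.10, adjusted p = 0.036 by limma) and none with the benzyl ester, where pole-1, the catalytic subunit of polymerase epsilon, had -0.64 (adjusted p = 0.058). The genes closest to licensing itself, those of origin recognition and licensing control, had medians of -0.53 and -0.49 over 10 genes and no call. Among them, gmn-1, the geminin that inhibits CDT-1, had -0.74 with the benzyl ester (adjusted p = 0.0769), and cdt-2, the substrate receptor that targets CDT-1 for destruction, had -0.74 with the methyl ester (adjusted p = 0.0914) and -0.71 with the benzyl ester (adjusted p = 0.0894).

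Deoxynucleotide synthesis (6 genes, medians of -0.20 and -0.40) and the G1 to S regulators (16 genes, medians of -0.33 and -0.20) had no call with either ester against tryptophan-betaxanthin. dut-1, the dUTPase, had -0.82 with the methyl ester (adjusted p = 0.0612 by limma) and -0.72 with the benzyl ester (adjusted p = 0.065), whereas dtmk-1, a deoxythymidylate kinase, had 0.81 with the methyl ester (adjusted p = 0.0601). cye-1, the cyclin E that drives entry into S phase, had -0.71 with the benzyl ester (adjusted p = 0.0644). Against the control none of the 75 genes passed with any compound, although 34 were lower at an unadjusted p under 0.05 with the methyl ester, 31 with the benzyl ester and 1 with tryptophan-betaxanthin, beside 8.13%, 7.07% and 3.52% of all probe sets. top-2 came closest there, with -0.72 for the benzyl ester (adjusted p = 0.0891). Without the third trial, the calls against tryptophan-betaxanthin were 3 lower and 1 higher (dtmk-1) of 75 for the methyl ester, beside 1.36% of all probe sets called lower, and 22 lower and 1 higher (dtmk-1) for the benzyl ester, beside 4.82%. Against the control it was then 0 for the methyl and 6 lower for the benzyl ester, beside 2.13%, with top-2, gmn-1 and cye-1 among them. With the trial number as a block, 19 of 75 were lower and 1 higher for the methyl ester against tryptophan-betaxanthin, beside 5.05%. For the benzyl ester it was 20 lower and 0 higher, beside 1240 of 26761 probe sets called lower.

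**Figure D4:**
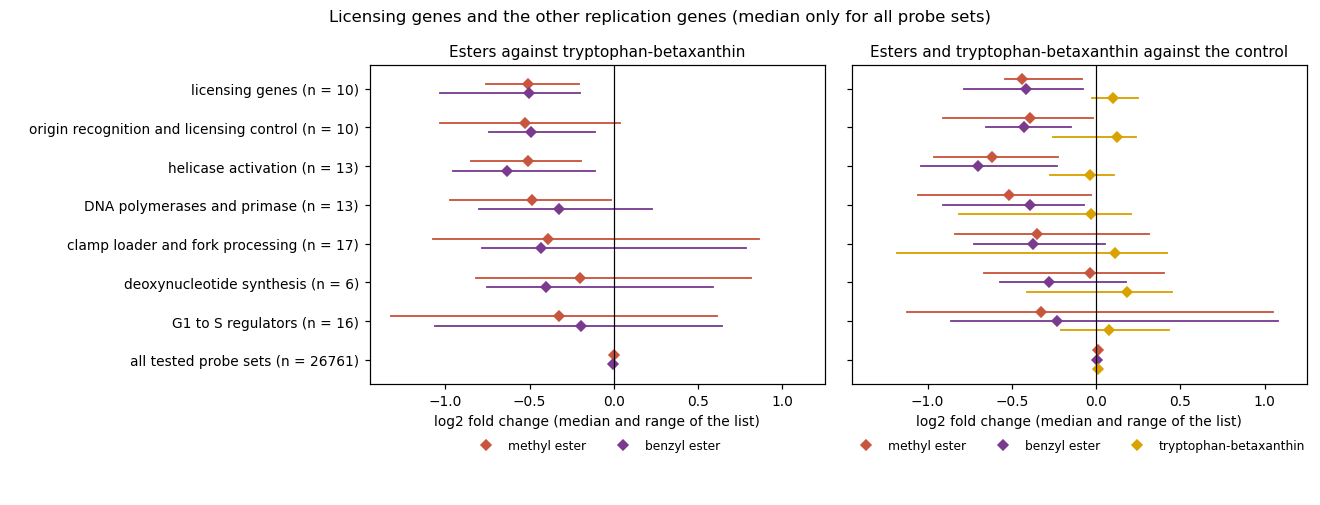
Diamonds are the median log2 fold change of each list and lines its lowest to highest gene, against tryptophan-betaxanthin on the left and against the water control on the right, with the number of genes measured beside each list. For all tested probe sets only the median is drawn. The licensing genes have medians of -0.51 (methyl ester) and -0.50 (benzyl ester) on the left, beside a median near 0 for all probe sets.

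Markers of several cell types also had lower or higher levels with the esters. For proliferating germ cells, the mean log2 signal of 9 measured markers lay between 3.67 and 4.38 in methyl ester arrays, 3.99 and 4.24 in benzyl ester arrays, 4.54 and 4.89 with tryptophan-betaxanthin and 4.64 and 4.69 in the controls. Against tryptophan-betaxanthin 0 of 9 passed with the methyl and 1 of 9 with the benzyl ester. Of all probe sets, 0.437% and 0.998% were called lower and 0.93% and 2.1% higher there. The mean of 10 oocyte markers ranged from 4.47 to 6.04 with the methyl ester, 4.56 to 5.74 with the benzyl ester, 6.33 to 6.73 with tryptophan-betaxanthin and 6.42 to 6.46 in the controls, and that of 8 meiotic prophase markers from 4.45 to 5.41, 4.70 to 5.80, 5.50 to 5.81 and 5.86 to 5.93 in the same order. The mean over the 10 licensing genes had a smaller range, from 4.68 to 5.04 with the methyl ester, 4.48 to 4.90 with the benzyl ester, 5.17 to 5.45 with tryptophan-betaxanthin and 5.18 to 5.19 in the controls.

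Yolk genes, which the adult intestine transcribes, also had lower means with the esters, with medians of -0.86 (methyl) and -1.29 (benzyl) against tryptophan-betaxanthin over 6 genes and no call. Much of this lay in the third trial. Their mean signals in trials 1, 2 and 3 were 8.73, 8.99 and 7.28 with the methyl ester and 8.86, 8.80 and 6.24 with the benzyl ester. With tryptophan-betaxanthin they were 9.22, 9.34 and 8.87, and in the controls 9.24 and 9.26. Sperm markers had medians of -0.34 and -0.56 over 9 genes with no call. The mean of 6 hypodermis and moult markers was higher than in the controls (5.33 and 5.34) with every compound. In trials 1, 2 and 3 it was 5.96, 6.04 and 7.01 with the methyl ester and 5.62, 5.67 and 6.82 with the benzyl ester. With tryptophan-betaxanthin it was 5.85, 5.87 and 6.05. Against the control 5 of the 6 genes were higher and 1 lower with each compound, and none passed. Intestine and body wall muscle markers had medians of 0.01 and -0.15 with the methyl ester and -0.10 and -0.12 with the benzyl ester against tryptophan-betaxanthin. The lowest mean of a list on any array was 3.48, of the sperm markers with the benzyl ester. The part of germ cell number, stage and trial in the lower signal of the licensing genes was not tested.

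**Figure D5:**
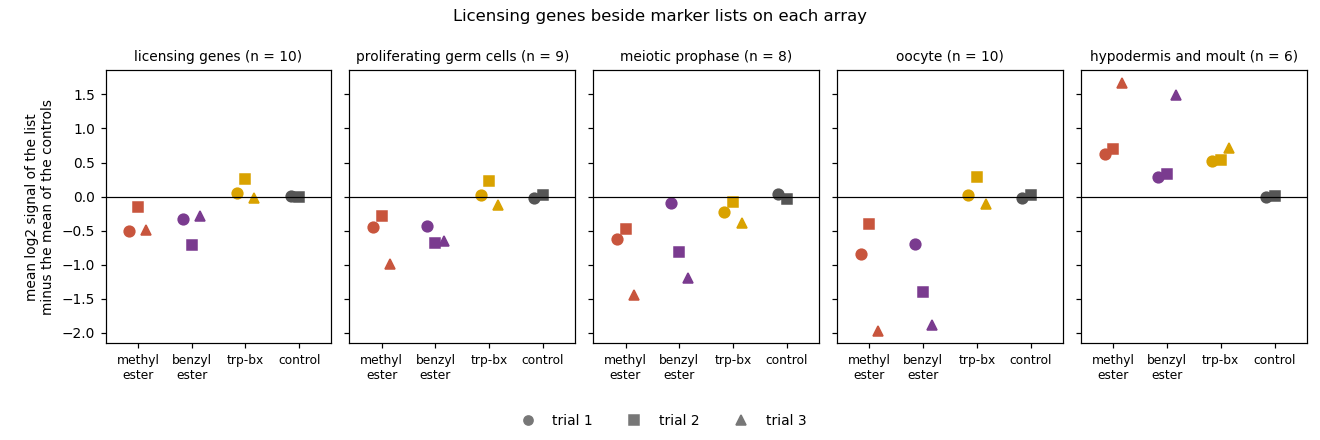
The vertical axis gives the mean log2 signal of a list on each array, less the mean of the controls, and the horizontal axis the treatments, with marker shapes for the trials (trp-bx is tryptophan-betaxanthin). The licensing genes are on the left, beside 4 marker lists. Within each ester the oocyte markers are lowest on the third-trial array (triangles). The mean signal of the licensing genes with the methyl ester is nearly the same in trials 1 and 3 (4.68 and 4.70). With the benzyl ester it is lowest in trial 2 (4.48).

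The genes whose profile over the 11 arrays was most like the mean of the 10 licensing genes were found among 13072 other genes with a signal above the median. The measure was the root mean square difference of the profiles, each centred on its own mean. The 5 closest were cash-1 (0.05 log2 units), a striatin homologue, sas-6 (0.05), a centriole assembly protein, npp-9 (0.06), a nucleoporin, pole-1 (0.07) and kle-2 (0.08), a condensin II subunit. Of the licensing genes themselves, mcm-5 and mcm-6 were nearest to the mean of the others (0.07 and 0.08), and cdt-1 and mcm-7 farthest (0.27 and 0.25). The arrays are the same for all these genes, so that the likeness is a description.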

How the data were processed

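The authors deposited 1 table of log2 signals for the probe sets of the C. elegans Gene 1.1 ST array. The submitters' notes name RMA and the Affymetrix Expression Console, the methods speak of the Transcriptome Analysis Console, and no versions are given in these sources. RMA corrects background, equalises the arrays and summarises probes, so it removes shifts that most genes share. Whole-animal RNA (TRIzol, PureLink, 3.5 ng input) was amplified with the WT Pico kit. Array number limits the precision, since arrays give no read counts. Of 29317 probe sets, the 26761 with a gene symbol in the platform annotation were tested, 26281 of them with 1 symbol. Names were checked against RefSeq (WBcel235), with 24801 of the 26281 probe sets with 1 symbol matched.

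Groups and trials follow the labels. limma 3.58.1 (R 4.3.3) fitted 4 group means, with Benjamini-Hochberg adjustment across the 26761 probe sets and a cutoff of 0.05. The p-values measure the spread between trials. The third trial was set against the mean of the earlier ones over the 9 treated arrays, with treatment in the model. The scripts were tested on simulated data. Deviations from the group means of same-numbered arrays correlated at 0.214, 0.291 and 0.453 for the methyl ester with tryptophan-betaxanthin. Between the esters it was 0.501, 0.235 and 0.742, and for the benzyl ester with tryptophan-betaxanthin 0.272, -0.061 and 0.472. The controls had -0.047 to 0.134. Arrays of trials 1 and 2 with different numbers reached like values, 0.214 and 0.151, 0.497 and 0.431, and 0.295 and 0.328 in the same order. Third-trial arrays had negative values with arrays of the earlier trials of other compounds. The deviations of a group sum to 0 over its arrays, so these correlations depend on each other. They cannot decide whether the arrays of trials 1 and 2 are paired.

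All 10 licensing genes are named, and of each other replication list up to 2 genes with the smallest p in a comparison. Marker lists are given by counts, medians and ranges. The probe set with the highest mean stood for a gene with several. Members and lists were chosen with earlier results of these data known. The alternatives are listed with their effects in the closing section. They also included a fit of only the groups compared, probe sets above the median, all probe sets and averages over probe sets of 1 gene. The interaction with the third trial, the within-trial differences and the mean of the esters were added after the data were seen.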

Additional observations from a re-analysis of the deposited data

How the results depend on the processing

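The count of licensing genes that passed was the result that moved most. Beside 3 of 10 for the benzyl ester against tryptophan-betaxanthin, the count was 1 with an intensity trend and a robust prior, 5 with the replicate block, 5 with cyclic loess, 7 with array weights and 7 without the third trial, and 0 to 5 when 1 array was left out. For the methyl ester against tryptophan-betaxanthin it was 0, but 5 with the replicate block, 6 with array weights, 1 without the third trial and 0 to 5 with 1 array left out. Against the control it was 0 for both esters, but with array weights 1 for the methyl and 4 for the benzyl ester, and for the benzyl ester 2 without the third trial and 0 to 2 with 1 array left out (1 and 2 without the methyl ester arrays of trials 2 and 3). In the F test it was 0, but 3 with the replicate block, 7 with array weights, 1 with cyclic loess, 3 without the third trial and 0 to 4 with 1 array left out. The cause was not tested. The labels give the same trial numbers to every group, and the correlations of the arrays do not settle whether trials 1 and 2 are paired. With the block, the other counts of licensing genes were 0 as without it. All calls against control rose with array weights as well, 1235 beside 69 for the methyl and 1537 beside 151 for the benzyl ester, and were 616 and 1455 without the third trial and 319 and 343 with the block. In the F test all calls were 359, and 2145 with the replicate block, 2948 with array weights, 333 with cyclic loess and 2326 without the third trial. Over all probe sets, 267 of 828 calls for the benzyl ester against tryptophan-betaxanthin were lower, against 404 of 808 with cyclic loess and 367 of 779 with median centring, and for the methyl ester 117 of 366, against 143 of 318 and 150 of 333. These totals were 3011 and 2961 with the replicate block and 2491 and 1995 with array weights (benzyl first). They were 2930 and 882 without the third trial, 295 and 171 with the intensity trend, and 55 for the methyl ester with only the groups compared. With 1 array of a compound left out, they ran from 25 to 2087 (benzyl ester) and from 12 to 1625 (methyl ester). For the benzyl ester against control all calls then ran from 61 to 726, and in the F test from 72 to 1094. The highest counts of licensing genes came with 1298 and 2087, 1625, 726 and 1094 calls in the same order. The count stayed at 0 under the alternatives run for tryptophan-betaxanthin against control, the methyl against the benzyl ester and the third trial. The median over the 10 genes moved by less than the spread between arrays (0.22 log2 units) in every alternative of each comparison.

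Single genes changed sign only where no test had passed. Between the methyl and the benzyl ester mcm-5 was 0.10 and mcm-6 0.085 with array weights, mcm-5 was 0.021, mcm-6 0.037 and orc-2 0.030 with cyclic loess, mcm-6 was 0.0065 and orc-2 0.0008 with median centring, and mcm-5 was 0.19, mcm-6 0.13, cdt-1 0.056 and orc-2 0.012 without the third trial. For tryptophan-betaxanthin against control pcn-1 was -0.025 with the replicate block and cdt-1 0.049 with cyclic loess. With 1 array left out, the ranges that crossed 0 were, for tryptophan-betaxanthin against control, -0.024 to 0.10 (mcm-6), -0.13 to 0.24 (cdc-6), -0.15 to 0.097 (cdt-1), -0.02 to 0.27 (orc-2) and -0.0045 to 0.10 (pcn-1). They were -0.23 to 0.072 for orc-2 with the methyl ester and -0.22 to 0.067 with the benzyl ester against control, and for cdt-1 with the benzyl ester -0.60 to 0.047 against control and -0.57 to 0.074 against tryptophan-betaxanthin. Between the esters they were -0.056 to 0.24 (mcm-3), -0.19 to 0.11 (mcm-5), -0.14 to 0.082 (mcm-6), -0.54 to 0.10 (cdt-1) and -0.098 to 0.15 (orc-2), and for the third trial -0.061 to 0.046 (mcm-4), -0.26 to 0.056 (mcm-5) and -0.23 to 0.031 (cdc-6).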
